A study of Mus musculus with 6 samples.

Results

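Immunoglobulin locus transcripts are RNAs from the heavy-chain (Igh), kappa (Igk) and lambda (Igl) light-chain loci, which encode antibodies. Their members were the genes of the expression table whose transcript type begins with IG_, and 48 of 27480 genes met this rule. They comprised 10 constant-region genes, 26 variable segments (5 of them pseudogenes), 9 joining segments and 3 diversity segments, of which 30 lay in the heavy-chain, 12 in the kappa and 6 in the lambda locus. GENCODE M21 annotates 432 such genes on GRCm38, and those without a row were not analysed here. The RNA came from mouse OT1 CD8+ T cells, killer T cells with a transgenic receptor for a peptide of ovalbumin (OVA). In 3 PTMA libraries the cells overexpressed PTMA (prothymosin alpha, an acidic protein of the nucleus), and in 3 vector libraries they carried the empty overexpression vector. All 6 libraries are labelled wild type and were made from cells stimulated with OVA peptide for 48 h. The sources used here state neither the construct's promoter and species nor the age and Rag genotype of the mice. No label ties a replicate to its own mouse or culture, and the p-values therefore measure a spread among libraries that may be technical.

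An antibody gene is assembled in developing B cells, when the RAG recombinase joins a variable (V), a diversity (D, heavy chain only) and a joining (J) segment. The assembled exon is then spliced to a constant (C) region, mu first. Before or without such assembly, the heavy-chain enhancer between the joining segments and the mu constant region drives sterile transcripts, which hold constant-region sequence with no variable segment, and these are known from T cells as well as early B cells. RNA of an assembled antibody gene holds both a variable and a constant part, which is why both kinds of segment are set against each other in each library.

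The heavy-chain joining segments, and the diversity segment nearest to them, Ighd4-1, are shown because they carried nearly all joining and diversity counts. They are printed 5′ to 3′ on the minus strand of chromosome 12, as GENCODE M21 transcripts on GRCm38. For Ighj2 the coordinates are those of the whole gene and span more bases than the transcript printed. The capitals mark TGGGGNNNAGG, the letters that these segments share from the codon of their conserved tryptophan onward, with N where they differ. Built from the 4 Ighj segments, it is in all 4 by construction. It was found in 0 of 5 Igkj and 0 of 5 Iglj segments, and in 4 of all 84 immunoglobulin and T cell receptor joining segments (4.76%), searching both strands.
Ighd4-1 (chr12:113430528-113430538): ctaactgggac
Ighj1 (chr12:113429781-113429833): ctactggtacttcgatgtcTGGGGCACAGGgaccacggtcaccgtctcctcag
Ighj2 (chr12:113429468-113429567, transcript Ighj2-202): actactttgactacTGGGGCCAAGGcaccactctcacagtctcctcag
Ighj3 (chr12:113429085-113429132): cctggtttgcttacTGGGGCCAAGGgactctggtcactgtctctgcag
Ighj4 (chr12:113428514-113428567): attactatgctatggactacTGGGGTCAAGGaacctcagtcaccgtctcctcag
No stretch of 31 bases from the 4 joining segments occurred in a transcript of another gene. Ighd4-1 is shorter than that and was not tested for it.

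Total counts ran from 54989408 to 66767589 per library, so that a count of 0 allows up to 3 counts, or 0.0449 to 0.0546 CPM (counts scaled to library depth) in a single library. Defining genes of CD8+ T cells were abundant, and 11 of 11 were tested, 10 with positive log2 fold changes (median 0.06) and 0 called. Their summed level was 7908, 7880 and 7378 CPM in PTMA 1 to 3, against 7313, 7305 and 7710 CPM in vector 1 to 3. Ptma stood at 1152, 1346 and 1272 CPM in the PTMA libraries and at 848, 783 and 1146 CPM in the vector libraries. Its log2 fold change of 0.44 (SE 0.13) did not pass edgeR's quasi-likelihood test (adjusted p = 0.951). Of 10 oocyte markers, 10 had negative log2 fold changes, and 1, the oocyte growth factor gene Gdf9, was called. Their summed level was 5.59, 10.6 and 14.6 CPM in PTMA and 50.2, 45.3 and 41.6 CPM in vector libraries, and their part in the results below was not tested. Of 8 dendritic cell genes tested, 5 were positive and 0 called, with a median log2 fold change of 0.07 and sums of 394, 368 and 352 CPM in PTMA and 356, 374 and 345 CPM in vector libraries, which overlapped. Most of these sums came from Ccr7, at 373, 342 and 332 CPM in PTMA and 339, 360 and 330 CPM in vector libraries. Among the 8 genes, the chemokine gene Ccl22 had 5.99, 8.42 and 5.86 CPM in PTMA and 2.09, 0.852 and 0.709 CPM in vector libraries (log2 fold change 2.48, SE 0.39, edgeR adjusted p = 0.199). Fscn1 had 1.51, 1.82 and 1.81 CPM in PTMA and 0.339, 0.325 and 0.0806 CPM in vector libraries (log2 fold change 2.78, SE 0.50, edgeR adjusted p = 0.318). Of the 8 genes, 3 had negative log2 fold changes. The keratin gene Krt14 had a count of 0 in PTMA 2, PTMA 3 and vector 1 and stood at 5.99 CPM in PTMA 1, 15.3 CPM in vector 2 and 18.4 CPM in vector 3, so that the groups overlapped. In bulk RNA, more cells of a type and more RNA per cell cannot be told apart.

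A single gene, Ighm, gave 96.46% of the 378446 counts over all members. Ighm (ENSMUSG00000076617, chr12:113418558-113422730, minus strand) encodes the mu constant region of IgM. Its counts were 64322, 66440 and 62137 in PTMA 1 to 3, against 51479, 59209 and 61454 in vector 1 to 3. Per length, it stood at 472, 480 and 456 FPKM (fragments per kilobase of transcript, scaled to library depth) in the PTMA libraries and at 434, 457 and 456 FPKM in the vector libraries. It ranked 74, 74 and 74 among all genes by FPKM in PTMA 1 to 3 and 77, 70 and 74 in vector 1 to 3. In scaled CPM it averaged 984 ± 36.1 in PTMA and 942 ± 41.9 in vector libraries (SD, n = 3 per group). The groups overlapped, since vector 3 (991 CPM) lay above PTMA 3 (945 CPM). The log2 fold change of 0.06 (SE 0.06) did not pass (edgeR quasi-likelihood, adjusted p = 0.952).

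The delta constant region of IgD, Ighd (ENSMUSG00000104213, chr12:113406604-113416324), lies directly downstream of Ighm and is made by splicing past it. It was the next most abundant member, and with Ighm gave 99.22% of the counts of the members. Ighd stood at 31.1, 29.0 and 26.9 CPM in the PTMA libraries, against 26.4, 25.5 and 26.6 CPM in the vector libraries. The groups did not overlap, although PTMA 3 lay just above vector 3. At a log2 fold change of 0.15 (SE 0.09) it did not pass (edgeR quasi-likelihood, adjusted p = 0.951). Set against its neighbour, Ighd made up 3.05%, 2.78% and 2.77% of the joint Ighm and Ighd counts in PTMA 1 to 3 and 2.79%, 2.70% and 2.62% in vector 1 to 3. The widest 95% Clopper-Pearson interval, that of vector 1, ran from 2.65% to 2.94%, and like all intervals here it covers counting error only. By this share PTMA 2 and PTMA 3 lay below vector 1, so the groups overlapped.

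Joining segments came next, at 0.5324% of all member counts, and the segment farthest upstream, Ighj1, held most of them. Ighj1 had 260, 274 and 266 counts in PTMA 1 to 3 and 257, 290 and 273 counts in vector 1 to 3. Ighj2 had 18, 23 and 28 counts in PTMA and 40, 38 and 28 in vector libraries. Ighj3 had 10, 8 and 6 counts in PTMA and 12, 9 and 11 in vector libraries. Ighj4, the segment nearest to Ighm, had 24, 24 and 28 counts in PTMA and 29, 20 and 26 in vector libraries. Per length, Ighj1 was the highest of the 4 in every library, at 67.7 to 79.5 FPKM, and Ighj3 the lowest except in PTMA 1, where Ighj2 had 2.37 FPKM and Ighj3 2.65 FPKM. The segments are shorter than the sequenced fragments described in the labels, which limits FPKM as a scale between them. The other diversity segments, Ighd3-2 and Gm37327, had 1 count each, both in vector 1, while Ighd4-1 had 3 or 4 counts in every library. Ighj1 made up 83.3%, 83.3% and 81.1% of the heavy-chain joining counts in PTMA 1 to 3 and 76.0%, 81.2% and 80.8% in vector 1 to 3, with overlapping groups. A fragment that spans a joining segment and Ighm may be counted under either, since no source used here gives the counting rule.

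**Figure D1:**
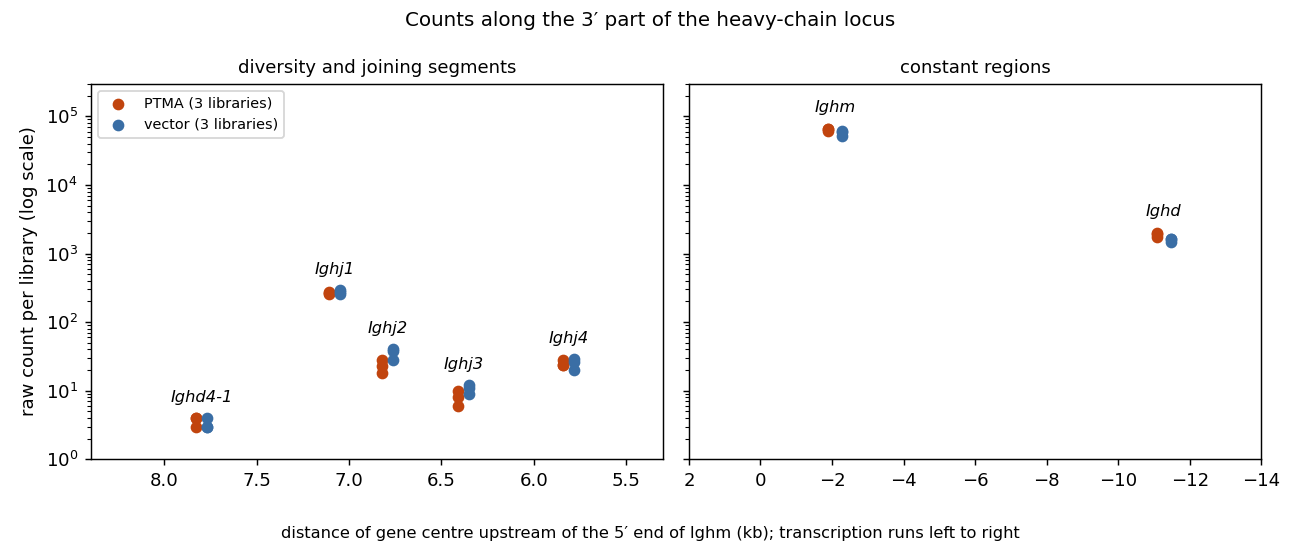
Raw counts per library (log axis) against the distance of each gene's centre upstream of the 5′ end of Ighm in kb, for the diversity and joining segments (left) and the mu and delta constant regions (right); each point is a library of the PTMA or vector group. Ighj1 sits at 257 to 290 counts, above its neighbours Ighd4-1 and Ighj2, and Ighm at 51479 or more in all 6 libraries.

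In scaled CPM, every PTMA library lay below every vector library for the summed joining segments, for Ighj1 and for Ighj2, while the groups overlapped for Ighj3 and Ighj4. The sum over the 9 joining segments was 4.81, 5.16 and 4.99 CPM in PTMA 1 to 3, against 6.09, 5.56 and 5.45 CPM in vector 1 to 3, a log2 ratio of the group means of -0.19. Ighj1 averaged 4.08 ± 0.0988 CPM in PTMA and 4.49 ± 0.0946 CPM in vector libraries (SD, n = 3 per group), and Ighj2 averaged 0.352 ± 0.0744 CPM in PTMA and 0.585 ± 0.132 CPM in vector libraries. For both genes the groups did not overlap. Neither passed the test: the log2 fold change was -0.14 (SE 0.15, adjusted p = 0.953) for Ighj1 and -0.73 (SE 0.44, adjusted p = 0.951) for Ighj2 (edgeR quasi-likelihood). In raw counts the groups overlapped for Ighj1 (260, 274 and 266 in PTMA, 257, 290 and 273 in vector libraries), so its separation rested on depth scaling. For Ighj2, PTMA 3 and vector 3 had the same raw count and differed only through the depth of the library. As a share of joining plus constant-region counts, joining segments took 0.468%, 0.489% and 0.510% in PTMA 1 to 3 and 0.639%, 0.586% and 0.533% in vector 1 to 3. This share needs no scaling, but it uses the same joining counts over mostly constant-region counts, whose log2 ratio of the group means was 0.07. Again the groups did not overlap, but the 95% Clopper-Pearson intervals did in 5 of 9 pairs of a PTMA and a vector library. Those of all 3 PTMA libraries (0.418% to 0.523%, 0.438% to 0.544% and 0.457% to 0.568%) overlapped that of vector 3 (0.477% to 0.592%), and those of PTMA 2 and PTMA 3 also overlapped that of vector 2 (0.527% to 0.650%).

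**Figure D2:**
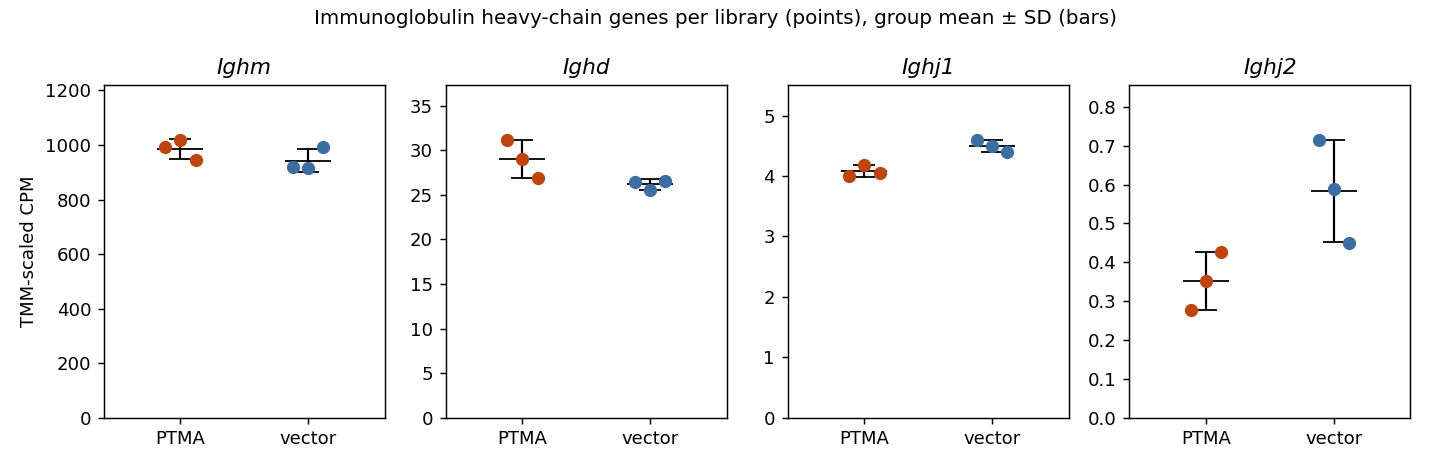
Scaled CPM of Ighm, Ighd, Ighj1 and Ighj2 in each library (points) with the group mean and SD (bars), PTMA left and vector right; each vertical axis starts at 0. Ighm overlaps between groups, Ighd lies higher and Ighj1 and Ighj2 lie lower in the PTMA libraries, and none of the 4 passed the test.

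Of the 48 members, 7 passed the filter on low counts and were tested: Ighm, Ighd, Ighj1, Ighj2, Ighj4, Ighg2b and Ighv6-3. The other 41 were removed by that filter. None of the 7 was called by edgeR, 0 had an unadjusted p under 0.05, and DESeq2 called 0 of the same 7. Among all 16592 genes tested, 2 (0.0121%) were called and 771 (4.65%) had an unadjusted p under 0.05. Log2 fold changes were positive for 2 members and negative for 5, where 46.8% of all tested genes were positive with a median of -0.01. The groups did not overlap, in the higher direction, for 1 member, Ighd, against 5.39% of all tested genes, and in the lower direction for 2, Ighj1 and Ighj2, against 5.38%. The remaining log2 fold changes were -0.10 (SE 0.45) for Ighj4, -0.88 (SE 1.39) for Ighg2b and -0.12 (SE 1.05) for the variable segment Ighv6-3. These 3 turned positive when vector 1 was left out (0.09, 0.69 and 0.04), and Ighv6-3 also without PTMA 1 (0.46) or vector 3 (0.05).

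Constant regions outnumbered variable segments in every library. Summed counts of the 10 constant-region genes were 66371, 68607 and 63956 in PTMA 1 to 3 and 53035, 60875 and 63125 in vector 1 to 3. Those of the 26 variable segments were 54, 267 and 26 in PTMA and 51, 25 and 16 in vector libraries. There were thus 1229, 257 and 2460 constant-region counts per variable count in PTMA 1 to 3 and 1040, 2435 and 3945 in vector 1 to 3. The groups overlapped, and PTMA 2 had the lowest ratio of the 6. Variable counts made up 0.0813%, 0.388% and 0.0406% of variable plus constant counts in PTMA 1 to 3 and 0.0961%, 0.0411% and 0.0253% in vector 1 to 3. For PTMA 2 the 95% Clopper-Pearson interval was 0.343% to 0.437%, which overlapped no other library's.

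The T cell receptor loci, whose assembled genes CD8+ T cells use, show what the same count gives there. Over 7 constant-region genes and 152 variable segments of those loci, variable counts made up 19.4%, 19.1% and 18.9% of variable plus constant counts in PTMA 1 to 3 and 19.5%, 19.4% and 19.5% in vector 1 to 3. Variable counts ran from 68407 to 85214 per library at these loci, against 16 to 267 at the immunoglobulin loci.

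**Figure D3:**
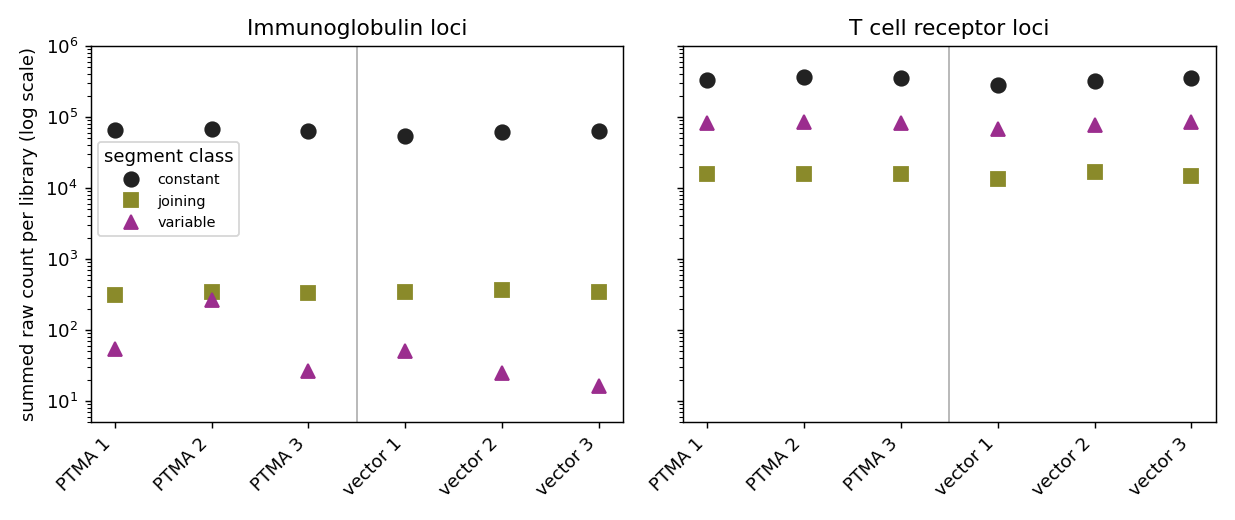
Summed raw counts per library (log axis) of constant, joining and variable genes at the immunoglobulin loci (left) and the T cell receptor loci (right), PTMA libraries left of vector libraries in each. Variable segments lie between 16 and 267 counts at the immunoglobulin loci, with PTMA 2 highest, and between 68407 and 85214 at the T cell receptor loci.

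The summed constant-region level was 1022, 1050 and 973 CPM in PTMA 1 to 3 and 947, 943 and 1018 CPM in vector 1 to 3, with overlapping groups and a log2 ratio of the group means of 0.07. The summed variable-segment level was 0.832, 4.09 and 0.396 CPM in PTMA and 0.911, 0.387 and 0.258 CPM in vector libraries. Its log2 ratio of 1.77 rested on PTMA 2 and was 0.24 without that library. These sums are described without a test.

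Variable segments were sparse and mostly private to a library. Of the 26, 19 had counts in a single library, 3 in at least 3 libraries, and only the pseudogene Ighv8-7 in all 6. The number of variable segments with any count was 9, 9 and 6 in PTMA 1 to 3 and 8, 7 and 2 in vector 1 to 3. Ighv8-7 had 7, 9 and 1 counts in PTMA and 7, 1 and 6 in vector libraries. Ighv6-3 had 0, 16 and 8 counts in PTMA and 9, 5 and 10 in vector libraries. Igkv14-111 had 11, 0 and 3 counts in PTMA and 0, 7 and 0 in vector libraries. Of the other segments among the 10 with the largest sums, the pseudogene Gm37511 had 7 counts in PTMA 2 and 5 in vector 1, Ighv8-6 had 7 in PTMA 1 and 4 in vector 2, and Ighv8-8 had 11 in PTMA 1. The remaining 16 segments reached at most 10 counts in any library.

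PTMA 2 stood apart. In this library 4 variable segments, 2 of the heavy chain and 2 of kappa, together had 231 of its 267 variable counts, and none of the 4 had any count in the other 5 libraries. Igkv12-46 had 78 counts, Igkv6-23 had 70, Ighv9-3 had 46 and Ighv1-18 had 37. Without them PTMA 2 had 36 variable counts over the other 22 segments, or 0.0524% of variable plus constant counts, within the range of the other libraries. The 4 were picked as the largest variable segments counted in a single library, so leaving them out could lower PTMA 2 only. Segments private to another library were kept, so this range is no test of PTMA 2. The last 60 bases of each segment's transcript are shown because this end is the one joined to a D or J segment. They are from GENCODE M21 on GRCm38, 5′ to 3′. The capitals mark TATTNCTGT, where N is any base. In the 4 segments it encodes a tyrosine, a tyrosine or phenylalanine, and the conserved cysteine near the end of a variable segment. It was found in the last 60 bases of 139 of 218 annotated immunoglobulin variable genes (63.8%), searching both strands.
Ighv1-18 (chr12:114682632-114683065, minus strand): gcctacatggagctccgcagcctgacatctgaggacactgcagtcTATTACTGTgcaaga
Ighv9-3 (chr12:114140692-114141122, minus strand): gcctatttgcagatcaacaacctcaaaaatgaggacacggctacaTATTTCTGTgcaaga
Igkv12-46 (chr6:69764523-69765022, minus strand): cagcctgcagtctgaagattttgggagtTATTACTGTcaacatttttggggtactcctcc
Igkv6-23 (chr6:70260409-70260955, minus strand): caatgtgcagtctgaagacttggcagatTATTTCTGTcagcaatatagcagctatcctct
These segments have close relatives. Of their stretches of 31 bases, 55.4% in Ighv1-18, 42.7% in Ighv9-3, 48.4% in Igkv12-46 and 55.5% in Igkv6-23 also occur in transcripts of other genes, so part of their reads could belong to another segment of the same family. No source used here says how reads with several matches were counted.

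The kappa constant region, Igkc (ENSMUSG00000076609, chr6:70726435-70726966, plus strand), was high in the same library. It had 4, 241 and 7 counts in PTMA 1 to 3 and 21, 4 and 2 counts in vector 1 to 3. In CPM this was 3.69 in PTMA 2, against 0.0322 to 0.375 in the other 5 libraries. PTMA 2 also held all 8 counts of the kappa joining segments Igkj1 and Igkj2, at 4 each, the 10 counts of the gamma 3 constant region Ighg3 and the 5 counts of the lambda constant region Iglc1. Jchain, whose product links IgM and IgA into polymers and which plasma cells express, had 8, 93 and 8 counts in PTMA 1 to 3 and a count of 0 in all 3 vector libraries. Mzb1, a chaperone of antibody assembly in B-lineage cells, had 0, 17 and 0 counts in PTMA and 9, 0 and 0 in vector libraries. Igkc and Jchain were not tested, since the filter on low counts removed both.

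Other constant regions did not follow that library. The gamma 2b gene Ighg2b had 19, 9 and 0 counts in PTMA and 35, 0 and 11 in vector libraries. The lambda gene Iglc2 had 4, 0 and 18 counts in PTMA and 16, 6 and 0 in vector libraries, and Iglc3 had 0, 4 and 24 in PTMA and 0, 10 and 0 in vector libraries. Ighg1 had 7 counts, in vector 3, and Ighg2c had 5, in vector 1. Igkc, Igkj1 and Igkj2 overlap the annotated gene Gm30211, and Iglc1 and Iglc3 overlap 2010309G21Rik, so their reads may belong to those genes, whose strand was not compared here. Of their 31-base stretches Iglc3 shares 40.8% and Iglc2 19.6% with other genes, so counts may be split between them.

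**Figure D4:**
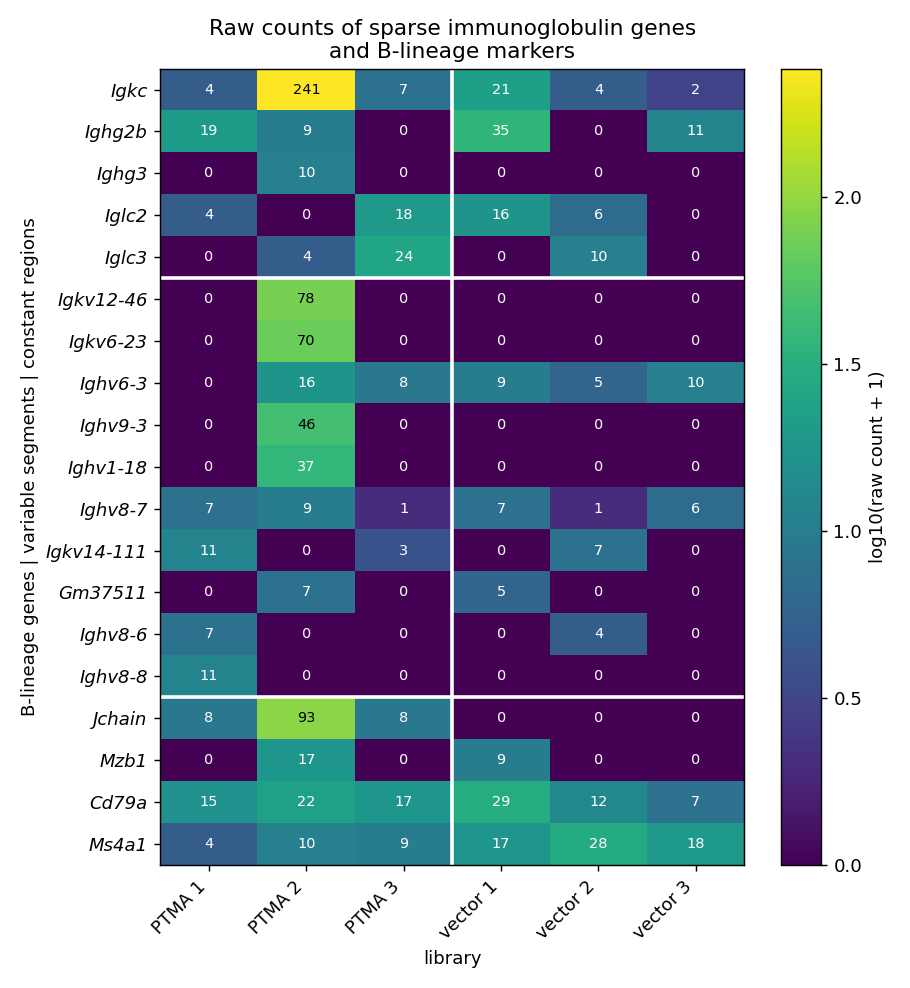
Raw counts, printed in each cell and coloured as log10(count + 1), of constant regions other than Ighm and Ighd with at least 10 counts (top), the 10 most abundant variable segments (middle) and B-lineage genes (bottom), PTMA libraries left of vector libraries. PTMA 2 holds 241 counts of Igkc, 93 of Jchain and the 4 variable segments with 37 to 78 counts that are at 0 in every other library.

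The B cell markers did not move one way. Ms4a1, which encodes CD20, had 4, 10 and 9 counts in PTMA 1 to 3 and 17, 28 and 18 in vector 1 to 3 (log2 fold change -1.53, SE 0.62, edgeR adjusted p = 0.951). Cd79a, a signalling chain of the B cell receptor, had 15, 22 and 17 counts in PTMA and 29, 12 and 7 in vector libraries, with overlapping groups. Cd79b, its partner chain, had the smallest p of the markers and is described with the receptor's partners, where every PTMA library lay above every vector library. Cd22, an inhibitory receptor of B cells, had 38, 96 and 57 counts in PTMA and 53, 38 and 33 in vector libraries, and was highest in PTMA 2. Of the B cell markers 9 were tested, 5 positive and 4 negative with a median log2 fold change of 0.02, and 0 called. Their summed level of 261, 263 and 262 CPM in PTMA and 239, 252 and 245 CPM in vector libraries came mostly from Cd37 and Cd72. Cd37 alone stood at 179, 177 and 185 CPM in PTMA and 169, 178 and 166 CPM in vector libraries. Of the plasma cell markers 7 were tested, 4 positive and 3 negative with a median of 0.02, and 0 called. Their summed level was 382, 407 and 385 CPM in PTMA and 365, 366 and 368 CPM in vector libraries, the highest in PTMA 2. Most of it came from Xbp1 and Txndc5, which act in the secretory pathway of many cells, and Txndc5 had 156, 159 and 157 CPM in PTMA and 146, 148 and 145 CPM in vector libraries. The markers differed in PTMA 2. Xbp1, Txndc5 and Tnfrsf13b were highest in that library, at 155, 159 and 62.7 CPM. Prdm1 and Derl3 were at their lowest there, at 2.66 and 0.78 CPM, and Sdc1, at 6.41 CPM, lay below every vector library. Pax5, Fcrla and Tnfrsf17 were not analysed here. The part of B-lineage RNA in the counts of PTMA 2 was not tested.

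Genes that assemble immunoglobulin genes included those specific to lymphocyte precursors, near 0, general DNA repair factors and DNA-bending proteins. Rag1, a subunit of the recombinase, had 2 counts, both in vector 2, and Rag2 was not analysed here. Dntt, the polymerase that adds bases at the joints, had 0, 12 and 0 counts in PTMA and 11, 7 and 0 in vector libraries. Of the V(D)J recombination list 9 were tested, 6 positive and 3 negative with a median log2 fold change of 0.03, and 0 called. The smallest p was that of the ligase Lig4, at 3.37, 3.67 and 4.40 CPM in PTMA and 3.07, 2.48 and 3.68 CPM in vector libraries (log2 fold change 0.31, SE 0.22, edgeR adjusted p = 0.951). The most abundant was Hmgb2, a DNA-bending cofactor of the recombinase, at 820, 1076 and 948 CPM in PTMA and 744, 685 and 1185 CPM in vector libraries. The surrogate light chain genes of pre-B cells were low. Vpreb3 had 25, 12 and 34 counts in PTMA and 29, 26 and 29 in vector libraries, and Vpreb1 had 35, 13 and 20 in PTMA and 40, 19 and 19 in vector libraries. Both had negative log2 fold changes (-0.35, SE 0.51, and -0.33, SE 0.59), neither was called, and Igll1 and Vpreb2 were not analysed here.

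Class switching exchanges the mu constant region for gamma, alpha or epsilon. Of the list for this process and hypermutation, 12 genes were tested, 9 positive and 3 negative with a median log2 fold change of 0.09, and 0 called.

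Most listed transcription factors that act on the immunoglobulin enhancers and promoters were present, with the exceptions given below. Of the list of such factors 18 were tested, 5 positive and 13 negative with a median log2 fold change of -0.05, and 0 called. Groups did not overlap for 0 of these 18, against 10.8% of all tested genes in either direction. Ets1, which binds the heavy-chain enhancer, was the most abundant at 686, 743 and 783 CPM in PTMA and 859, 888 and 715 CPM in vector libraries. The smallest p was that of Irf4, at 49.8, 44.5 and 53.8 CPM in PTMA and 54.7, 65.5 and 50.2 CPM in vector libraries (log2 fold change -0.20, SE 0.12, edgeR adjusted p = 0.951). The octamer-binding factor Pou2f2 stood at 28.7, 29.3 and 27.4 CPM in PTMA and 32.8, 31.6 and 25.8 CPM in vector libraries, and its coactivator Pou2af1 at 16.2, 19.8 and 21.4 CPM in PTMA and 20.6, 20.7 and 18.4 CPM in vector libraries. Spi1, the factor PU.1 of myeloid and B cells, had 12, 8 and 15 counts in PTMA and a count of 0 in all 3 vector libraries, and was not tested. Spib had 0, 11 and 4 counts in PTMA and 8, 4 and 0 in vector libraries. Ebf1 was also low, at 1.42, 0.566 and 0.487 CPM in PTMA and 1.32, 1.02 and 0.548 CPM in vector libraries. Pax5 was not analysed here.

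Partners of the B cell receptor included genes that T cells share. Of the list 9 were tested, 6 positive and 3 negative with a median log2 fold change of 0.11, and 0 called. Cd79b, the other signalling chain of that receptor, stood at 5.61, 6.17 and 4.98 CPM in PTMA and 4.13, 3.24 and 3.68 CPM in vector libraries, every PTMA library above every vector library, as for 5.39% of all tested genes. It did not pass, with a log2 fold change of 0.60 (SE 0.17), an unadjusted p of 0.0071 and an adjusted p of 0.951 (edgeR). The most abundant of the list was the adaptor Pik3ap1, at 116, 107 and 107 CPM in PTMA and 120, 132 and 112 CPM in vector libraries. Of receptors for the constant regions of antibodies 4 were tested, 3 positive and 1 negative with a median of 0.06, and 0 called. Trim21, a cytosolic antibody receptor, stood at 33.7, 38.1 and 34.2 CPM in PTMA and 36.9, 34.6 and 33.2 CPM in vector libraries. The IgG receptor Fcgr3 had the smallest p of them, at 0.909, 0.842 and 0.609 CPM in PTMA and 0.536, 0.619 and 0.661 CPM in vector libraries (log2 fold change 0.38, SE 0.37, edgeR adjusted p = 0.952).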

How the data were processed

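Each library's gene-level values came as raw counts deposited by the authors, per the file headers, and as FPKM deposited alongside them, per the file headers. The submitters' processing notes list the tools Bowtie 0.12.2, HISAT2 2.0 and StringTie 1.3.0 and the build mm8, without their roles. Poly(A) RNA was sequenced in pairs, per the labels' protocols, whose mention of an adipose type does not match T cells. For the counting program, its strand setting and its treatment of multiple matches, no source used here gives a value. All 48 members had the start and end of GENCODE M21 on GRCm38, whose coordinates are printed, and all rows of the table had at least 1 count.

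The counts of all 6 libraries were tested in R 4.3.3 by the quasi-likelihood method of edgeR 4.0.16 (filterByExpr filter, TMM factors, a design of group alone), and adjusted by the Benjamini-Hochberg method over 16592 genes (threshold 0.05). Log2 fold changes are PTMA minus vector, and their SEs were derived from the log2 fold change and the F statistic of the test. CPM values are TMM-scaled, except those given for a count of 0, which used total counts. The procedure was tested on simulated counts. Alternatives were other scalings and filters, DESeq2 1.42.0, a replicate block, each library left out, and limma 3.58.1 on log2(FPKM + 1). Members and lists were chosen with earlier results of these data known. Named were constant, joining and diversity genes with at least 10 summed counts, the 10 most abundant variable segments, the 3 tested members with the smallest p, and per list any called gene or else the most abundant gene and that with the smallest p; others were chosen after their values were seen, and some genes under this rule are not reported here. Replicates differed by 16.4 to 76.2 chi-square units per gene, so none is a repeat of another.

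Further marker lists gave 0 called genes each: of plasmacytoid dendritic cells 4 genes were tested (1 positive), of macrophages and monocytes 2 (2 positive), of CD4 T cells 4 (2 positive), of NK cells 3 (2 positive), of keratinocytes 7 (0 positive) and of erythroid cells 0.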

Additional observations from a re-analysis of the deposited data

How the results depend on the processing

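The number of immunoglobulin members called was 0 in all 15 alternatives, over 7 to 48 members tested, of which at most 2 had an unadjusted p under 0.05. The number of genes called over all genes was 2, and it was 0 with no filter, with at least 10 counts summed, with limma on log2(FPKM + 1) without a filter and with the replicate block, 1 with limma on log2(FPKM + 1) or log2(FPKM + 0.1) where genes under a mean of 1 FPKM were dropped, and 42 with DESeq2; leaving out 1 library at a time gave 0 to 4. Without its most abundant member, Ighm, the log2 ratio of the summed level was 0.18 for all members and 0.20 for constant regions, and without Ighj1 it was -0.42 for joining segments, in place of 0.07, 0.07 and -0.19. Leaving out 1 library gave 0.04 to 0.10 for all members, 0.04 to 0.10 for constant regions, 0.24 to 2.46 for variable segments, -0.22 to -0.14 for joining segments and -1.94 to -0.31 for the log2 ratio of constant to variable counts, PTMA minus vector, which was -1.23 with all libraries. Without the 4 segments found in PTMA 2 alone, a choice made after seeing the data, the variable-segment ratio was 0.19. Leaving out 1 library gave log2 fold changes of -1.92 to 0.69 for Ighg2b (positive without vector 1), -0.26 to 0.09 for Ighj4 (positive without vector 1) and -0.38 to 0.46 for Ighv6-3 (0.46 without PTMA 1, 0.04 without vector 1 and 0.05 without vector 3; without PTMA 2, which holds its largest count, the filter removed this gene and there is no value). The log2 fold changes of Ighm (0.04 to 0.11), Ighd (0.10 to 0.22), Ighj1 (-0.17 to -0.12) and Ighj2 (-0.88 to -0.56) kept their sign in all 15 alternatives and were never called. Deviations from the group means correlated at 0.074, -0.22 and -0.14 between libraries of the same number, so the replicate block rests on shared numbers only. The filter removed 41 members; with no filter all 48 were fitted and 0 called, and their low counts limit any statement on them.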
